A study of Mus musculus with 7 samples.

Results

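The insulin and IGF axis genes are 8 genes of the count table: the ligand gene Igf2, the receptor genes Insr and Igf1r, the docking-protein genes Irs1 and Irs2, and the binding-protein genes Igfbp2, Igfbp5 and Igfbp7. They were taken by gene symbol, and each symbol matched 1 of the 20343 complete rows of the table. Messenger RNA was sequenced from the apical heart muscle of 7 NSG-DR1 mice, a severely immunodeficient strain (NSG-DRB1*0101 in the labels) that carries the human class II molecule HLA-DR1, lacks its own lymphocytes and keeps its own myeloid cells. In the control group, 4 mice were left untreated, so no mock transfer stands beside the treatment. In the transferred group, 3 mice received human CD4+ T cells and hearts were taken 6 weeks later. Both groups share the strain and the transgene, and the age of the mice and the number of cells given are not given in the sources used here. The series title calls the given cells terminally differentiated and links them to inflammation of the ageing heart.

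Insulin and the insulin-like growth factors signal through 2 related receptor tyrosine kinases, the products of Insr and Igf1r. The active receptors phosphorylate the docking proteins IRS1 and IRS2, which recruit phosphoinositide 3-kinase, and the kinase AKT then drives glucose uptake and protein synthesis and keeps FOXO transcription factors out of the nucleus. Secreted binding proteins hold IGFs in the circulation and the matrix and set how much ligand reaches the receptors. In heart muscle the axis is known for growth control, survival and fuel choice.

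None of the 8 genes separated control from transferred hearts. Irs2 stood out in another way: its level differed 9.44-fold between the highest and the lowest heart, and both extremes were control hearts. The other 6 tested genes differed between 1.23-fold and 1.70-fold across all 7 hearts. Igfbp2 was close to the detection floor and did not pass the filter of the main test. Of the 7 tested genes, 0 passed an adjusted p of 0.05 in the edgeR quasi-likelihood test, where 18 of 7667 tested genes (0.235%) did, 0.13% as higher and 0.104% as lower, and 0 had an unadjusted p under 0.05, where 12.4% of all tested genes did. The count was 0 of 7 also with DESeq2, which called 3.26% of genes, and with limma-voom, which called 0%. In 0 of the 7 genes were the groups free of overlap, against 11.2% of all tested genes, 5.99% higher and 5.22% lower after transfer. The median log2 fold change of the 7 was -0.03, beside -0.00199 over all tested genes.

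Column totals over the analysed chromosomes ran from 16402194 to 25190580 counts, and 3 counts correspond to 0.115 to 0.189 CPM, counts scaled to a fixed library total. The heart muscle genes listed as cardiomyocyte markers, among them Tnnt2, Actc1 and Myl2, summed to 131000 to 151000 CPM in control and 127000 to 158000 CPM in transferred hearts. Of the 12 macrophage markers in the table, 12 of 12 had an unadjusted p under 0.05 and were higher in transferred hearts, and 2 of them passed the adjusted threshold. Their sum was 486 to 721 CPM in control and 862 to 1320 CPM in transferred hearts. The 6 neutrophil markers summed to 270 CPM in transferred heart 2, 40 CPM in transferred heart 3 and between 10.1 and 14.4 CPM in the other hearts. Fibroblast markers summed to 2130 to 2940 CPM in control and 2080 to 2680 CPM in transferred hearts, adipocyte markers to 1680 to 1890 and 1530 to 1910 CPM, mouse T cell markers to 32.3 to 41.3 and 30.9 to 38.1 CPM, and epicardial markers to 14.1 to 42.2 and 22.5 to 30.7 CPM. Some of these sums rest on few genes that other cells also express. The adipocyte sum was mostly Fabp4 (1046 to 1467 CPM), also on the endothelial list, and Dgat2, while Plin1, Cidec, Lep, Retn and Pck1 stood between 0 and 0.507 CPM. The T cell sum was mostly Cd28 (21.9 to 31.4 CPM), while Cd2, Cd8a and Lck stood between 0 and 0.47 CPM. The epicardial markers Upk3b, Lrrn4 and Bnc1 stood at 0.129, 0 and 0 CPM in control heart 2 and at 0.667, 0.692 and 0 CPM in transferred heart 3, and Upk3b at 5.55 to 25.8 CPM in the other 5 hearts. In tissue of mixed cells, fewer cells of a type and less RNA per cell cannot be told apart. The labels pair no hearts and give no cage or day.

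Of the 18 genes past the threshold, 10 were higher and 8 lower, and with total count scaling 26 of 35 were higher. The labels name no batch, but the identifiers of 2 mice, control 1 and transferred 1, begin with letters and those of the other 5 are numbers alone.

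The promoters of the docking-protein genes are shown because the related genes Irs1 and Irs2 behaved unlike each other, one even and the other uneven across hearts, together with that of Nr4a3, one of the 3 genes most like Irs2 over the hearts and the one with a like range. Each run is the 250 bases before the annotated start, 5′ to 3′ on the strand of the gene, from RefSeq (GRCm38.p6): chr8:11008930-11009179, minus strand, for Irs2, chr1:82291440-82291689, minus strand, for Irs1, and chr4:48045055-48045304, plus strand, for Nr4a3. Capitals mark CACGTG, the E-box, and TGACG or its complement CGTCA, a half-site of the cyclic AMP response element.
Irs2: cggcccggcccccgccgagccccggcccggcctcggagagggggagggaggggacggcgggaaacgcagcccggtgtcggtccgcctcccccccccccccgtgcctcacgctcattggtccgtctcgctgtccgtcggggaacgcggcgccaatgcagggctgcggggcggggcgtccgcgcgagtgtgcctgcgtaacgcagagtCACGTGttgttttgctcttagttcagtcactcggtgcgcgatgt
Irs1: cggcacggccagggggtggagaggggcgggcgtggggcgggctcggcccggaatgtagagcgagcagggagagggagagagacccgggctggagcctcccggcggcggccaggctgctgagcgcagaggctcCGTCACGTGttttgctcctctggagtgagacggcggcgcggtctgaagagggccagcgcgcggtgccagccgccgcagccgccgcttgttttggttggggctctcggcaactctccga
Nr4a3: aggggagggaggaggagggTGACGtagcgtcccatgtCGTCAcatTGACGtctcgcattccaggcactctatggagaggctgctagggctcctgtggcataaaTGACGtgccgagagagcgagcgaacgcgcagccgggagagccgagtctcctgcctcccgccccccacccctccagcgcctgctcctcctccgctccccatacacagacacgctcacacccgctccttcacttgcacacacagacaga

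The Irs2 window held 1 E-box, 44 to 39 bases before the start. The Irs1 window held 1 E-box, 115 to 110 bases before the start, whose first bases overlapped a half-site at 118 to 114 bases. The Nr4a3 window held 4 half-sites, at 231, 213, 205 and 147 bases before the start. The Irs2 window held 0 half-sites. Of the 2 genes still more like Irs2 over the hearts, Hpdl held 0 and Ankrd42 held 1. Whether the half-site has a part in the levels of these genes was not tested. On both strands, 6.02% of all 32851 promoter windows of this length held the E-box and 17.8% held the half-site. Irs1 and Irs2 were both rich in CpG dinucleotides, with 28 and 34 in the window against a median of 6. The RefSeq table held 11 windows for 7 of the 8 genes, with no entry for Insr. The FOXO motif GTAAACA (3.17% of all windows) and the STAT motif TTCNNNGAA (7.02%), searched on both strands, matched in 0 of these 11 windows. One of several Igf2 windows held a half-site and one Igfbp2 window an E-box. These are matches of letters and not measured binding sites.

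Igf2 encodes insulin-like growth factor 2, an imprinted growth factor known for its role before birth. It was expressed in every heart, at 64.7, 51.0, 54.8 and 63.3 CPM in control hearts 1 to 4 and at 59.4, 69.9 and 42.6 CPM in transferred hearts 1 to 3. The highest and the lowest value were both in transferred hearts, and the control range lay inside the transferred range. The log2 fold change was -0.0272 with a standard error of 0.158 (edgeR adjusted p = 0.965) and a 95% interval from -0.38 to 0.33. The gene lies on chromosome 7 (GRCm38, 142650768 to 142666816, minus strand). The antisense gene Igf2os shares 7137 bases of this span and had 2 to 12 counts per heart.

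H19, the noncoding RNA expressed from the neighbouring imprinted locus, stood at 9.39, 14.4, 21.8 and 8.27 CPM in control hearts and at 22.4, 62.7 and 14.0 CPM in transferred hearts. Its log2 fold change was 1.29 with a standard error of 0.565 (edgeR adjusted p = 0.422). Transferred heart 2 carried most of this difference, and without it the value was 0.43. The same heart had the highest Igf2 value, but in transferred heart 3 Igf2 was lowest while H19 was within the control range.

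The receptors had the smallest spread within groups of the 7 tested genes. Insr encodes the insulin receptor and lies on chromosome 8 (3150922 to 3279649, minus strand). It stood at 452, 378, 368 and 438 CPM in control hearts 1 to 4 and at 368, 424 and 420 CPM in transferred hearts 1 to 3. Transferred heart 1 was level with the lowest control and the other two lay inside the control range. The estimated log2 fold change was -0.017 with a standard error of 0.0971 (edgeR adjusted p = 0.964). Its 95% interval ran from 0.85-fold to 1.15-fold.

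Igf1r encodes the receptor for IGF1 and IGF2 and lies on chromosome 7 (67952257 to 68233668, plus strand). The 4 control hearts were close together at 60.3, 59.8, 55.7 and 57.5 CPM. Transferred heart 1 was the lowest of all 7 at 55.2 CPM, and transferred hearts 2 and 3 were the highest at 72.1 and 63.4 CPM. The transferred hearts thus lay on both sides of the control range. The estimated difference on the log2 scale was 0.12, standard error 0.0965 (edgeR adjusted p = 0.659) and a 95% interval from -0.09 to 0.34. It was 0.22 without transferred heart 1 (edgeR adjusted p = 0.311, unadjusted 0.0378) and 0.0245 without transferred heart 2, the heart with the high neutrophil markers. The part of those cells in the value was not tested. Within the 5 hearts with numbers alone it was 0.24 (edgeR adjusted p = 0.348, unadjusted 0.0421).

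Per kilobase of exon (RPKM, CPM divided by exon length), Insr was well above Igf1r in every heart. The ratio of the Insr to the Igf1r level was 9.27 ± 0.847 (SD, n = 4) without transfer and 8.45 ± 0.583 (SD, n = 3) with it. By heart the ratio was 9.92, 8.37, 8.73 and 10.1 in the controls and 8.83, 7.78 and 8.75 after transfer, so the groups overlapped.

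Irs1 encodes the docking protein known for coupling the receptors to growth. It lies on chromosome 1 (82233105 to 82291439, minus strand). It stood at 111, 129, 111 and 101 CPM in control hearts and at 124, 100 and 107 CPM in transferred hearts. The groups covered nearly the same range. On the log2 scale the change was -0.0319 with a standard error of 0.103 (edgeR adjusted p = 0.933) and a 95% interval from -0.26 to 0.20.

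Irs2 encodes the second docking protein, a gene known to be induced by fasting and by cyclic AMP signals in other tissues. It lies on chromosome 8 (10984681 to 11008929, minus strand). It stood at 23.4, 221, 98.9 and 43.5 CPM in control hearts 1 to 4 and at 148, 29.0 and 86.0 CPM in transferred hearts 1 to 3. Hearts with high and low values occurred in both groups, and the 3 transferred values lay inside the control range. As the precision of single values, the exact 95% Poisson interval, which covers counting error only and not the spread between hearts, was 21.4 to 25.6 CPM in control heart 1 and 215 to 227 CPM in control heart 2. Of the 7 values, 1 had a fractional part. For Irs2 the log2 fold change was -0.15 with a standard error of 0.875 (edgeR adjusted p = 0.967).

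The 95% interval of that difference ran from -2.27 to 1.98, which spans changes from 0.208-fold to 3.93-fold. Leaving out single hearts changed its sign. Without control heart 2 the log2 fold change was 0.66, without transferred heart 2 it was 0.27, and without transferred heart 1 it was -0.76. Within the 5 hearts with numbers alone it was -1.07 (edgeR adjusted p = 0.664). Between the 2 hearts with letters the order was the opposite, 23.4 CPM in the control and 148 CPM in the transferred heart.

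**Figure D1:**
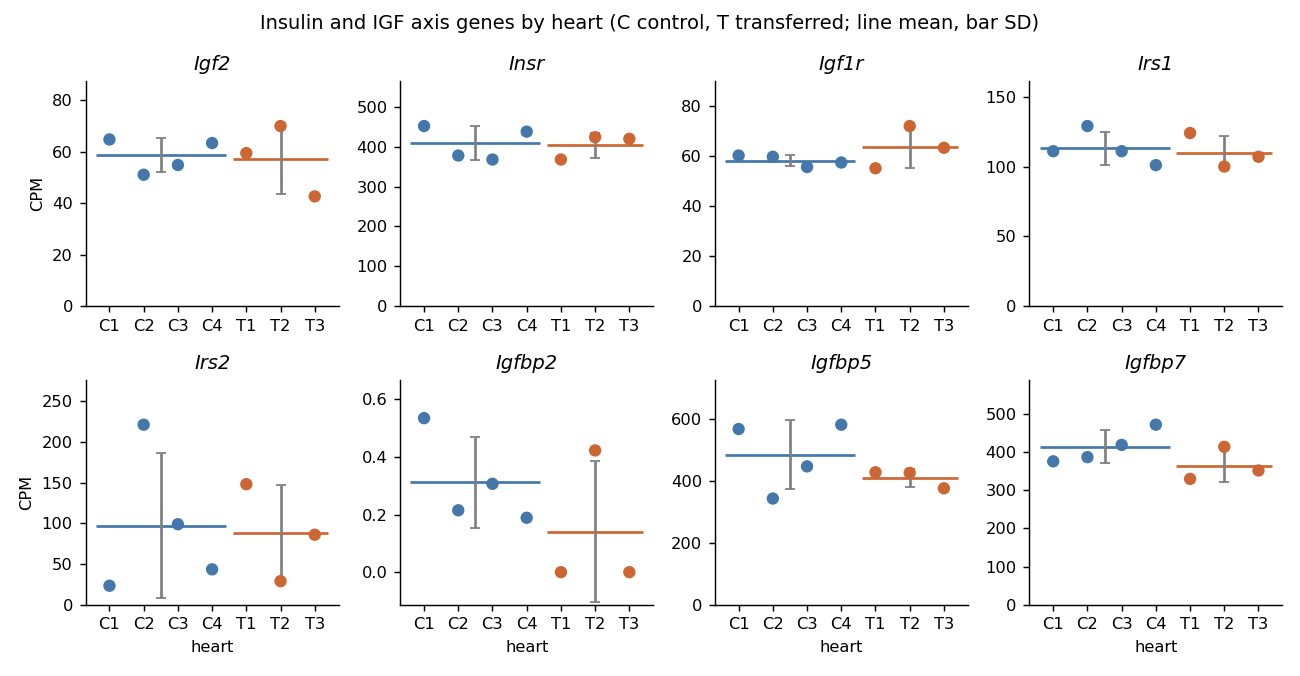
CPM of the 8 genes in each heart (points; C1 to C4 control, T1 to T3 transferred), with the group mean (line) and SD (bar), each panel on its own linear axis; the bar of Igfbp2 reaches below 0 because its SD exceeds its mean. Groups overlapped in every panel, and Irs2 ran from 23.4 to 221 CPM among the controls alone.

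The spread of Irs2 was unusual for its level. The SD of its log2 CPM within groups was 1.328, the 39th highest of 7667 tested genes, whose median was 0.179. Among the 2304 genes with a mean log2 CPM at least that of Irs2, it ranked 1st, and 95% of those genes were at or below 0.278. The SD was 0.15 for Irs1, 0.136 for Insr, 0.129 for Igf1r and 0.156 for Igfbp7, and 0.263 for Igf2 and 0.284 for Igfbp5. The Irs2 level per kilobase was 0.284, 2.32, 1.21 and 0.584 times the Irs1 level in control hearts 1 to 4 and 1.62, 0.39 and 1.08 times in transferred hearts 1 to 3. Irs2 thus gave between 22.1% and 69.9% of the summed Irs1 and Irs2 level. Which of the 2 docking-protein transcripts was more abundant differed from heart to heart within each group.

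**Figure D2:**
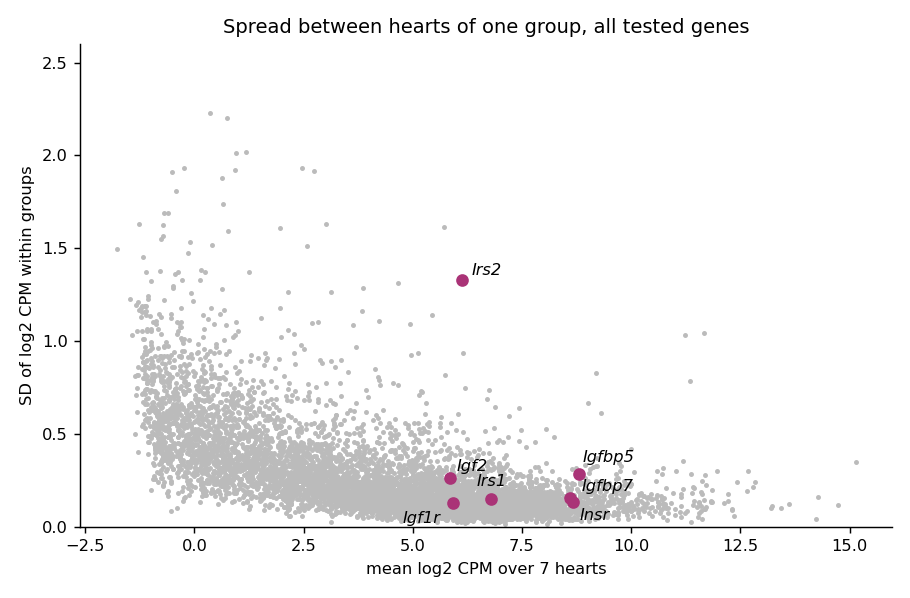
SD of log2 CPM within groups (vertical) against mean log2 CPM over the 7 hearts (horizontal) for the 7667 tested genes (grey) and the 7 tested insulin and IGF axis genes (purple). Irs2 lies far above genes of like abundance at 1.328, while the other 6 lie between 0.129 and 0.284.

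The hearts with low Irs2 were those with high Insr. The 3 hearts with the lowest Irs2, control 1, transferred 2 and control 4, held the 3 highest Insr values. Over the 7 hearts Pearson's r of log2 CPM was -0.86 (exact permutation p = 0.024) and Spearman's rho -0.82 (exact permutation p = 0.0341). Adjusted over the 21 pairs of the 7 genes, these p-values were 0.421 and 0.561, so the relation did not pass the correction. Pearson's r was -0.86 after centring each group, -0.92 without the 2 hearts farthest from the median of Insr, and -0.76 in the 5 hearts with numbers alone. Irs1 and Irs2 had r = 0.78 (exact permutation p = 0.0401, adjusted 0.421) and rho = 0.64 (exact permutation p = 0.139, adjusted 0.561). Without control heart 2 and transferred heart 1, the farthest on Irs1, this r was 0.28. In the 5 hearts with numbers alone, which leave out transferred heart 1 but keep control heart 2, it was 0.95. Leaving out 2 hearts at once cannot show whether the relation rested on either. All values of a heart share 1 library and 1 scaling factor.

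Genes whose log2 CPM over the 7 hearts was most like that of Irs2, among 7660 compared, were Hpdl (r = 0.984), Ankrd42 (0.981) and Nr4a3 (0.973). These are the highest of a search through all genes and are given as a description. Nr4a3, an orphan nuclear receptor known as an immediate early gene, stood at 8.22, 74.0, 47.4 and 16.2 CPM in control hearts and at 54.7, 11.9 and 22.0 CPM in transferred hearts, a 9.0-fold range beside 9.44-fold for Irs2. The order of the 7 hearts was that of Irs2. Hpdl had the same order of hearts but lay between 7.20 and 11.6 CPM only, and Ankrd42 between 1.02 and 2.11 CPM.

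The gene least like Irs2 was Txnip (r = -0.98), named after its values were seen. It encodes thioredoxin-interacting protein, a brake on glucose uptake, and is on the list of FOXO and insulin-responsive genes. Txnip stood at 744, 451, 556 and 632 CPM in control hearts and at 471, 772 and 581 CPM in transferred hearts. It was highest in the 3 hearts where Irs2 was lowest. Its promoter window held 1 FOXO motif, 121 to 115 bases before the start.

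**Figure D3:**
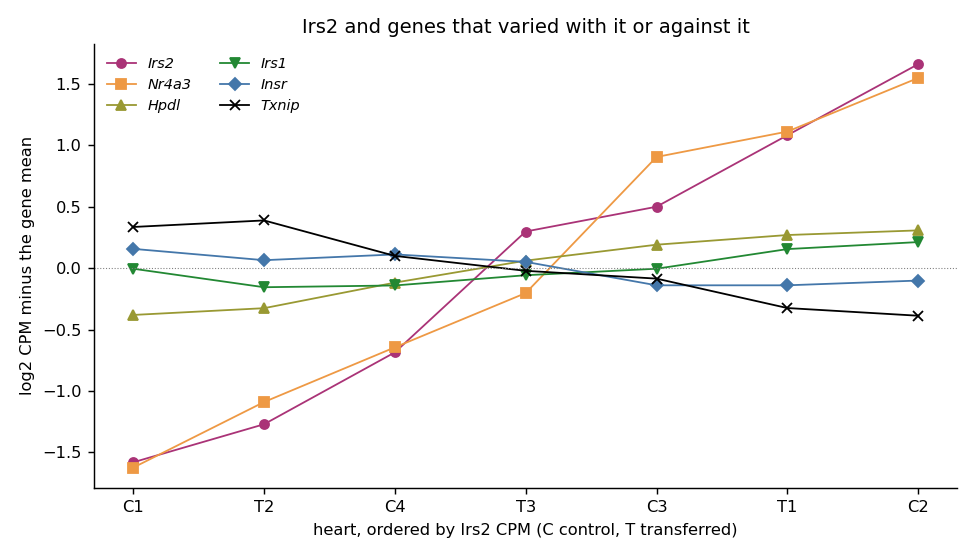
log2 CPM minus the mean of each gene (vertical) in the 7 hearts ordered by Irs2 (horizontal; C control, T transferred). Irs2 and Nr4a3 climb from control 1 to control 2 over about the same range, while Insr and Txnip slope the other way, and both groups are spread along the order.

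Per kilobase, Igfbp7 and Igfbp5 were the most abundant of the 8 transcripts. Igfbp5 encodes a high-affinity IGF-binding protein of the matrix and lies on chromosome 1 (72858065 to 72874865, minus strand). It stood at 569, 344, 448 and 583 CPM in control hearts and at 429, 427 and 377 CPM in transferred hearts. The controls held both the highest and the lowest values, and the transferred hearts lay between. The log2 fold change was -0.24 with a standard error of 0.168 (edgeR adjusted p = 0.62) and a 95% interval from -0.62 to 0.14. With single hearts left out it ran from -0.38 to -0.14: it was -0.38 without control heart 2, the lowest of the controls (edgeR adjusted p = 0.389, unadjusted 0.0117), -0.16 without control heart 1 and -0.14 without control heart 4, the highest.

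Igfbp7 encodes a secreted relative with low affinity for IGFs that is abundant in vessel walls and known as a secreted product of senescent cells. It lies on chromosome 5 (77349240 to 77408045, minus strand). It stood at 376, 387, 419 and 472 CPM in control hearts and at 330, 414 and 352 CPM in transferred hearts. Transferred hearts 1 and 3 were below every control and transferred heart 2 was among them. The log2 fold change was -0.18 with a standard error of 0.106 (edgeR adjusted p = 0.552) and a 95% interval from -0.42 to 0.06. With single hearts left out it ran from -0.28 to -0.11: it was -0.28 without transferred heart 2 (edgeR adjusted p = 0.503, unadjusted 0.031), and -0.11 without control heart 4 and without transferred heart 1 (edgeR adjusted p = 0.777 and 0.688). The neighbouring gene Polr2b, on the opposite strand, shares 89 bases with Igfbp7, and the sources used here do not state whether counting used the strand. Summed endothelial markers were 8200 to 9370 CPM in control and 8780 to 10100 CPM in transferred hearts, and summed mural markers 6600 to 8400 and 6830 to 7440 CPM. The mural sum was mostly Des (4075 to 5752 CPM), a gene of heart muscle too, and the endothelial sum mostly Cd36 (4479 to 5663 CPM) and Fabp4. Of the 13 endothelial markers, 2 were higher and 2 lower at an unadjusted p under 0.05, 1 passed the adjusted threshold by edgeR and 0 by limma-voom, and their median log2 fold change was 0.02. The one past the threshold was Aplnr, the apelin receptor gene, at 109 to 146 CPM in controls and lower after transfer, at 59.2 to 77.1 CPM (edgeR adjusted p = 0.0384). Vwf, chosen after its values were seen for its opposite direction, stood at 90.9 to 138 CPM in controls and 159 to 381 CPM after transfer (edgeR adjusted p = 0.20). The part of these cells in the Igfbp7 value was not tested.

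Igfbp2 encodes a binding protein known from liver and adipose tissue. It lies on chromosome 1 (72824480 to 72852474, plus strand), next to Igfbp5. It had 11, 5, 8 and 3 counts in control hearts 1 to 4 and 0, 9 and 0 counts in transferred hearts 1 to 3, and did not pass the filter on low counts. Summed over a group this was 0.315 CPM in controls (exact 95% Poisson interval 0.208 to 0.458) and 0.147 CPM in transferred hearts (0.0672 to 0.279). All 9 transferred counts came from heart 2. In transferred hearts 1 and 3, with a count of 0, the floor of 3 counts corresponds to 0.152 and 0.148 CPM, and the exact 95% Poisson interval reaches 0.187 and 0.182 CPM. Igfbp2 was fitted in 1 alternative, which kept all genes with at least 1 count, with a log2 fold change of -1.09, standard error 0.962 (edgeR adjusted p = 0.725).

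**Figure D4:**
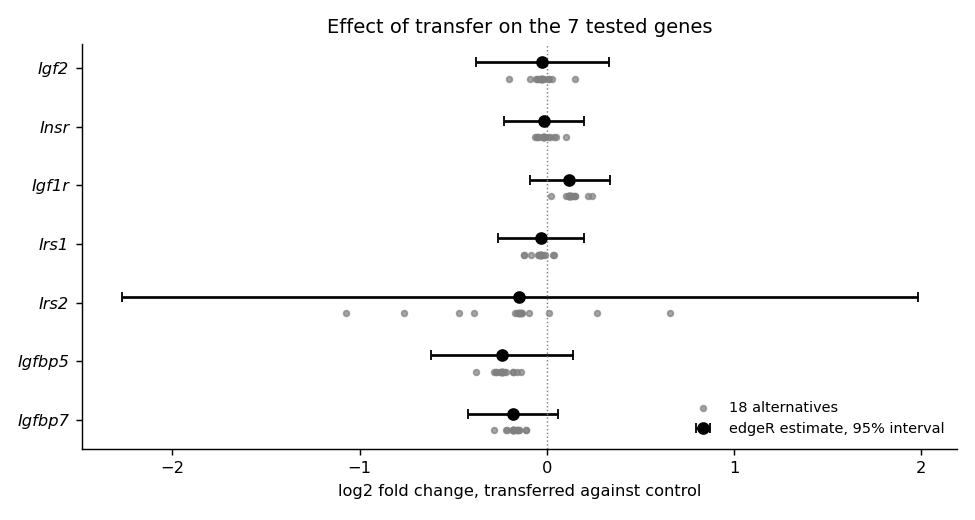
log2 fold change of transferred against control hearts for the 7 tested genes, with the edgeR estimate and its 95% interval (black) and the values under 18 alternative analyses (grey). Every interval includes 0, and that of Irs2, from -2.27 to 1.98, is much wider than the others.

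Per kilobase of exon the order of the 8 genes over all 7 hearts was Igfbp7, at 324 ± 38.9 RPKM (SD, n = 7), Igfbp5 at 77.5 ± 15.5, Insr at 43.2 ± 3.71, Irs2 at 13.7 ± 10.6, Irs1 at 12.2 ± 1.19, Igf2 at 10.2 ± 1.63, Igf1r at 4.86 ± 0.469 and Igfbp2 at 0.166 ± 0.14. The first 3 steps of this order held in 7 of 7 hearts, and so did Igf2 above Igf1r. Irs2, Irs1 and Igf2 could not be ordered: Irs2 was above Irs1 in 4 of 7 hearts and Irs1 above Igf2 in 5 of 7, with overlapping ranges. Nor did Irs2 stay above Igf1r. It was at 3.45 against 4.84 RPKM in control heart 1 and at 4.26 against 5.79 RPKM in transferred heart 2. Igfbp7 made up 80.5% ± 3.54 (SD, n = 4) of the summed level of the 3 binding proteins without transfer and 81.0% ± 1.92 (SD, n = 3) with it.

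**Figure D5:**
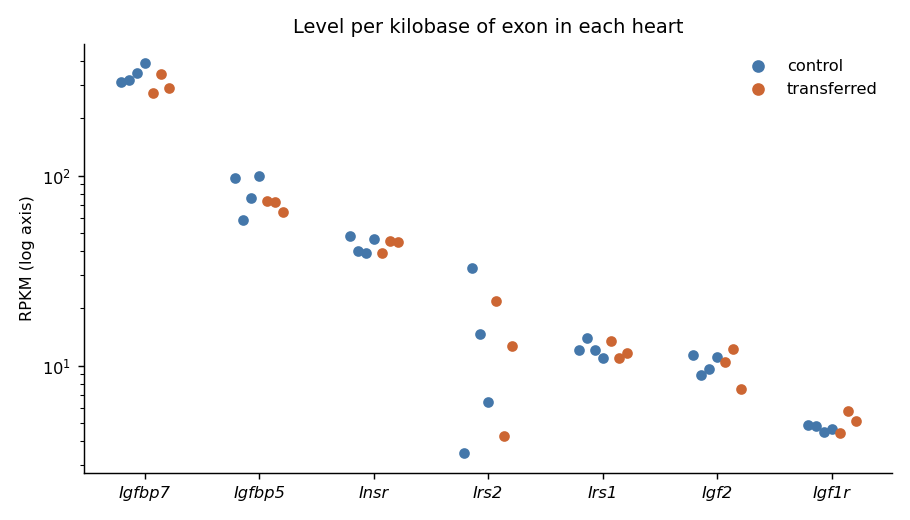
RPKM on a log axis in each heart (blue control, orange transferred) for the 7 genes with counts in every heart, ordered by mean; Igfbp2 is left out because 2 of its values are 0. Igfbp7 lies highest between 272 and 389 RPKM, and Irs2, between 3.45 and 32.6 RPKM, spreads across the levels of Irs1, Igf2 and Igf1r.

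The rest of the pathway was described with 7 lists of ligands, receptors, binding proteins, adaptors, the PI3K to mTOR branch, the RAS to MAPK branch and FOXO or insulin-responsive genes. Leaving out the 8 genes above, 68 of 147 listed genes had a row in the table and 61 were tested. Others, among them Igf1, Igf2r and Igfbp3, are not analysed here. By the edgeR test 0 of 61 passed the adjusted threshold, and 9 had an unadjusted p under 0.05, 4 higher and 5 lower, beside 12.4% of all tested genes. The groups did not overlap in 9 of 61, beside 11.2% of all tested genes. DESeq2 called 2 of the 61, Gadd45a and Ppargc1a, beside 3.26% of all genes, and limma-voom called 0. These shares are near those over all genes, and the genes named next are given as values only. The median log2 fold change of the 61 was -0.02.

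Gadd45a, a stress-response gene on the list of FOXO targets, came nearest to the threshold. It stood at 33.0, 37.8, 40.3 and 33.1 CPM in control hearts and at 24.7, 26.1 and 23.9 CPM in transferred hearts, without overlap. Its log2 fold change was -0.54 with a standard error of 0.104 (edgeR adjusted p = 0.0702, DESeq2 adjusted p = 0.000764). Ppargc1a, a coactivator of mitochondrial genes, stood at 199 to 207 CPM in control and 233 to 307 CPM in transferred hearts (log2 fold change 0.37, edgeR adjusted p = 0.143, DESeq2 adjusted p = 0.0203). Neither passed the main test.

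Among adaptors and regulators the smallest p-values were those of Sh2b3 and Ptpn1. Sh2b3, an adaptor that restrains cytokine signals, was at 89.9 to 99.5 CPM in control and 79.4 to 82.5 CPM in transferred hearts (log2 fold change -0.22, edgeR adjusted p = 0.227). For Ptpn1, a phosphatase that dephosphorylates the insulin receptor, the estimate was 0.20 on the log2 scale (edgeR adjusted p = 0.358). In the PI3K to mTOR branch, Ulk1, a kinase that starts autophagy, was at 242 to 280 CPM in control and 203 to 226 CPM in transferred hearts (log2 fold change -0.27, edgeR adjusted p = 0.185).

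Pik3cd, the leukocyte isoform of the phosphoinositide 3-kinase catalytic subunit, was at 8.70 to 11.7 CPM in control and 12.4 to 20.5 CPM in transferred hearts (log2 fold change 0.63, edgeR adjusted p = 0.201). Without transferred heart 2 the Pik3cd value was 0.41. Inpp5d, a phosphatase of blood cells, was at 15.5, 14.9, 15.2 and 23.4 CPM in control hearts 1 to 4. In transferred hearts it was at 22.3 to 27.2 CPM, a difference of 0.52 on the log2 scale (edgeR adjusted p = 0.246). Summed macrophage markers were higher in the 3 transferred hearts than in every control. Summed neutrophil markers were well above every control in transferred hearts 2 and 3. In transferred heart 1 they were only just above, at 14.4 CPM beside 14.2 CPM in control heart 2, and there Pik3cd was at 12.4 and Inpp5d at 24.7 CPM. The part of these cells in the 2 values was not tested. In the RAS to MAPK branch the estimates were -0.24 on the log2 scale for the transcription factor gene Elk4 (edgeR adjusted p = 0.379) and 0.23 for the kinase gene Rps6ka1 (edgeR adjusted p = 0.422). Ucp3, a mitochondrial carrier, had an unadjusted p under 0.05 and stood at 41.5 to 64.4 CPM in control and 17.3 to 39.9 CPM in transferred hearts, a log2 difference of -0.75 (edgeR adjusted p = 0.325).

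For the other members the 3 genes with the most similar log2 CPM over the 7 hearts were C1qtnf7, Cep350 and Elfn1 for Insr (r from 0.928 to 0.953), Cd209b, Tmem200b and Chd6 for Igf1r (0.963 to 0.985) and Mgat5, Gm12444 and Slc5a2 for Irs1 (0.922 to 0.954). They were Gltp, D930003E18Rik and Septin2 for Igf2 (0.952 to 0.975), Mir7010, Pkn2 and Ttll7 for Igfbp5 (0.961 to 0.979), and Stil, Hspa12b and Ckap2 for Igfbp7 (0.958 to 0.974). With 7 hearts and 7660 genes searched, values this high were reached for each of the 7 tested genes, including by genes near the floor such as Cd209b, at 0.253 to 1.13 CPM.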

How the data were processed

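Polyadenylated RNA of 7 hearts was sequenced as paired-end reads, per the labels. The authors' table holds values per gene, not normalized, with the combined exon length. Since 4.63% of the deposited numbers are not whole, they are handled here as estimated counts, and were rounded for testing. The submitters' processing notes name the build GRCm38.p6 and the tools bcl2fastq 2.20.0.422, cutadapt 2.5, STAR 2.7.2b, featureCounts 1.6.4 and DESeq2 1.22.2, with settings not given in the sources used here. The table analysed covers chromosomes 1 to 7 and the start of chromosome 8, and 1 unfinished row was left out. Other genes are not analysed here.

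Genes were filtered with filterByExpr, scaled by TMM and tested with the robust quasi-likelihood test of edgeR 4.0.16 in R 4.3.3, with Benjamini-Hochberg adjustment over 7667 genes. DESeq2 1.42.0 and limma 3.58.1 (voom) were alternatives, with other scalings and filters, the form of the identifiers as covariate, and hearts left out. The fit was also run on simulated data with a common spread between hearts for all genes, which does not represent genes as uneven as Irs2. CPM and RPKM use the TMM-scaled totals, and log2 CPM a prior count of 2. Standard errors come from the F statistic, and correlations were tested by exact permutation with scipy 1.17.1. Replicates were numbered in accession order. The members and gene lists were chosen with earlier results of these data known. Named are all members, the 2 listed genes with the smallest p-value per list, and the 3 genes most like each member; others (Txnip, Inpp5d, Ucp3, Pdk4, Fosl2, Gem, Aplnr, Vwf and single markers) were named after their values were seen. Markers of endothelial, fibroblast, mural, cardiomyocyte, adipocyte, macrophage, neutrophil, T cell and epicardial cells were summed per heart.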

Additional observations from a re-analysis of the deposited data

Results flagged for a closer look

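Over 16 genes, the 4 controls were searched for a single heart lying far from its group, and 2 genes showed one, where chance gives about 1 in 20 (0.8 expected). Control heart 4 had a log2 CPM of 4.41 for Rps6ka1, while the remaining controls lay from 4.18 to 4.20. Control heart 2 had a log2 CPM of 7.64 for Ppargc1a, while the remaining controls lay from 7.69 to 7.70, a small difference in size. None of the 7 tested insulin and IGF axis genes had such a heart among the controls. The search finds a single value far from the rest. It does not flag controls that all lie apart, as those of Irs2 do, from 23.4 to 221 CPM.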

How the results depend on the processing

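Of the 7 tested genes, 0 passed the adjusted threshold under any of the 18 alternatives, nor did Igfbp2 in the 1 that kept it, and Igfbp5, Igfbp7 and Igf1r kept their direction in all 18. Igf2, Insr, Irs1 and Irs2, with values near 0 or a wide interval, changed sign in 4, 5, 2 and 3 of them, and the cause was not tested. The log2 fold change of Igf2 was 0.00793 in the hearts with numbers alone, and from -0.20 to 0.15 with 1 heart left out. Insr was 0.00432 with total count scaling, 0.10 in the hearts with numbers alone, and from -0.0645 to 0.0464 with 1 left out. Irs1 was from -0.12 to 0.038 and Irs2 from -0.76 to 0.66 with 1 left out, and Irs2 was 0.0139 with limma-voom. Adjusted p-values of the 7 genes ran from 0.311 to 0.996. Over all genes, 18 calls (10 higher, 8 lower) became 35 with total count scaling (26 higher), 81 when all genes with at least 1 count were kept (66 higher, 15 lower) and 250 with DESeq2 (190 higher, 60 lower). They became 0 with limma-voom, with the identifier covariate and in the hearts with numbers alone, where 907, 973 and 1054 genes had an unadjusted p under 0.05. With 1 heart left out there were 0 to 140 calls, 0 to 128 higher and 0 to 12 lower. Without control heart 1, 2 or 4 or transferred heart 2 there were 0, with 831, 658, 773 and 706 at an unadjusted p under 0.05, without control heart 3 there was 1, without transferred heart 1 there were 27, and without transferred heart 3 there were 140. Of the 61 other pathway genes, 1 passed (Gadd45a) when all genes with at least 1 count were kept and 2 with DESeq2. No paired analysis was possible because the labels pair no hearts. Scaling factors come from part of the genome, and Igfbp2 is limited by depth.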

Other observations

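Pdk4, Fosl2 and Gem also differed between hearts of one group, and were named after their values were seen. Pdk4 is on the list of FOXO and insulin-responsive genes, while Fosl2 and Gem are on none of the pathway lists. Pdk4, the kinase that switches off pyruvate oxidation in fasting, stood at 409, 1570, 375 and 1200 CPM in control hearts 1 to 4 and at 455, 366 and 477 CPM in transferred hearts 1 to 3. Control hearts 2 and 4 were thus above all others. The order of hearts was not that of Irs2, which was high in control heart 2 and low in control heart 4. Its log2 fold change was -1.04 with a standard error of 0.571 (edgeR adjusted p = 0.548).

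Fosl2, an AP-1 transcription factor gene, and Gem, a small GTPase gene, were high in the hearts where Irs2 was high. Fosl2 stood at 52.9, 175, 150 and 77.3 CPM in control hearts and at 170, 74.2 and 124 CPM in transferred hearts. Gem stood at 5.93, 11.8, 11.4 and 7.07 CPM in control hearts and at 10.6, 6.59 and 10.5 CPM in transferred hearts. In both genes control heart 1 was lowest and control heart 2 highest, as for Irs2.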
